A study of Mus musculus with 51 samples.

Results

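The cytosolic ribosomal protein genes of the mouse were taken as the protein-coding genes whose symbol begins with Rpl or Rps and a digit, together with Rplp0, Rplp1, Rplp2 and Rpsa, with pseudogenes and the Rps6k kinases left out. The rule gave 88 genes, 54 of them with large-subunit and 34 with small-subunit symbols, out of 20831 protein-coding genes and 50600 gene IDs counted. Most of their products form the protein part of the ribosome. Rps19bp1 and Rpl7l1 meet the rule by symbol and do not name regular subunits. Most subunits come from a gene that every cell uses, and the mRNAs of most of them begin with a terminal oligopyrimidine (TOP) tract, a C followed by a run of C and T, through which the kinase complex mTORC1 and the RNA-binding protein LARP1 adjust their translation and stability. Mature neutrophils make little new ribosome: ribosome production is high in dividing myeloid progenitors and declines as granulocytes differentiate. The intron-containing genes have left many processed pseudogenes and a few intact retrogenes in the mouse genome, and such near-identical copies compete for short reads.

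The study measured RNA and chromatin accessibility in neutrophils during inflammation, and 43 RNA libraries and 8 ATAC libraries are used here. In the tissue experiment, Ly6G+ neutrophils were sorted from CX3CR1GFP Ly6GCre-tdTomato mice, in all groups, in which 100 µg zymosan (a yeast cell wall preparation) had been injected into a dorsal air pouch on day 6 and cells were taken 4 h later from the pouch exudate (5 RNA libraries), the pouch membrane (2), blood (5) and bone marrow (3). The cell experiment used ER-Hoxb8 cells, myeloid progenitors held in a dividing state by an estradiol-dependent Hoxb8 and allowed to become neutrophils by estrogen removal and 5 days of culture with G-CSF and SCF. They were then given 50 µg/ml zymosan or DMSO for 2 h, with 2 libraries per group. These cells fill 3 count tables: set 1 with cells labelled CEBPB-/-, JUNB-/- and WT, set 2 with cells labelled IRF5-/-, RELB-/- and WT, each with zymosan and with DMSO, and a later table with cells labelled RUNX1-/- and KLF6-/- with DMSO only, whose 2 WT libraries hold the same counts as the WT DMSO libraries of set 2. The labels do not say how the lines were made, whether each is 1 clone, or whether the 2 libraries of a group came from separate cultures, so p-values measure the spread between these libraries, which may be technical.

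Total counts were 9237737 to 19106125 read pairs per tissue library and 19366969 to 34263252 per ER-Hoxb8 library. Levels are given as CPM, counts relative to library size, after TMM scaling within a table, which sets the bulk of genes to no change, and differences as log2 fold changes from edgeR's quasi-likelihood test with Benjamini-Hochberg adjusted p over all genes of the table, called at 0.05. The targeted mRNAs checked the labels only in part. With DMSO, Junb was at 486 and 511 CPM in JUNB-/- cells against 851 and 948 CPM in WT. In set 2 Relb was at 68.3 and 67.5 CPM in RELB-/- cells and also at 72.2 and 74.8 CPM in IRF5-/- cells, against 168 and 172 CPM in WT. Irf5 was at 81 and 81.8 CPM in IRF5-/- cells and lower still, at 38.4 and 39.1 CPM, in RELB-/- cells, against 95.7 and 101 CPM in WT. Each of these mRNAs was thus below WT in both lines. Cebpb was at 537 and 510 CPM in cells labelled CEBPB-/- against 479 and 536 CPM in WT, Runx1 at 156 and 152 CPM in cells labelled RUNX1-/- against 59.3 and 61.5 CPM, and Klf6 at 851 and 852 CPM in cells labelled KLF6-/- against 622 and 638 CPM. Counts over a whole gene do not test a small edit, and these last cells are called CEBPB-labelled, RUNX1-labelled and KLF6-labelled here.

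Start sites show how the TOP feature is written in individual genes. RefSeq start windows (GRCm38.p6) were matched for 68 of the 88 genes. A C followed by 4 bases that are each C or T stood exactly at the annotated start in 15 of these 68 genes (22.1%), against 467 of 17492 protein-coding genes (2.67%) and 0 of 69 mitochondrial ribosomal protein genes. Within 5 bases either side of the start it stood in 31 of 68 (45.6%), against 21.5% of all and 24.6% of mitochondrial ones. Among genes with large zymosan responses in both sets, Rpl22l1, Rpl12 and Rps2 have the tract beginning 2 to 4 bases past the start. Rpl27a has it from 1 base before the start, and Rpl23 and Rpl10 have none within 5 bases. The 6 windows below show 3 genes with the tract at the annotated start, then Rpl22l1, Rpl12 and Rps2. Each runs 5′ to 3′ from 5 bases before the start to 25 bases from it on, with the stretch of C and T that begins at the matched C in capitals: Rpl28 at chr7:4792960-4792989 (plus strand), Rplp2 at chr7:141447646-141447675 (plus), Rps6 at chr4:86857343-86857372 (minus), Rpl22l1 at chr3:28805503-28805532 (plus), Rpl12 at chr2:32961707-32961736 (plus) and Rps2 at chr17:24720058-24720087 (plus).
Rpl28: tgtctCTCTTTCCgtctccggccgccatag
Rplp2: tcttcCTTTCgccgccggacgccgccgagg
Rps6: cgggcCTCTTTTTCgtgacgcctcccaggc
Rpl22l1: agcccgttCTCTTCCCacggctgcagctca
Rpl12: gatccgtCTTTTCggctttcggctcggagg
Rps2: gatctcgcgCTTCTTggagcactataaatt
In the whole 300-base windows, read on both strands, CCGGAAG was found in 26 of the 68 genes (38.2%), against 12.9% of all protein-coding genes and 37.7% of mitochondrial ribosomal protein genes. AAGATGGC was found in 6 (8.82%), against 3.57% and 17.4%. Neither string contains the other, and a match is a description of the letters only.

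The counts of several members and of their retrogenes differed widely between the tables. Per kilobase of gene, the most abundant members over all ER-Hoxb8 libraries of set 1 were Rplp0 (341 CPM per kb), Rpl17 (312), Rps9 (289), Rps3a1 (272) and Rps24 (254). In set 2 they were Rps27rt (491), Rps9 (295), Rplp0 (198), Rpl8 (160) and Rpl37rt (153), and in the later table Rps27rt (599), Rps9 (361), Rplp0 (301), Rpl8 (290) and Rps15 (261). Rps27rt and Rpl37rt are retrogenes of Rps27 and Rpl37. Rps27rt had 151 and 141 CPM in WT DMSO cells of set 2, against 1.13 and 1.26 CPM in WT DMSO cells of set 1. Rps27 showed the reverse, with 2.32 and 2.16 CPM in set 2 against 134 and 114 CPM in set 1. Rpl37rt had 121 and 110 CPM in set 2 against 0.753 and 0.771 CPM in set 1, and Rpl37 had 7.18 and 5.88 CPM against 84.6 and 66.6 CPM. The retrogenes were thus high where their parent genes were low. The annotated starts of Rps27 at chr3:90213621-90213650 (minus strand) and Rps27rt at chr9:114982713-114982742 (minus strand) share a run of 38 bases, and the part of it that falls in these windows is in capitals.
Rps27: ctcCTTTCCGGCGGTGACGACCTCCCTACG
Rps27rt: ttgCTTTCCGGCGGTGACGACCTCCCTACG

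**Figure D1:**
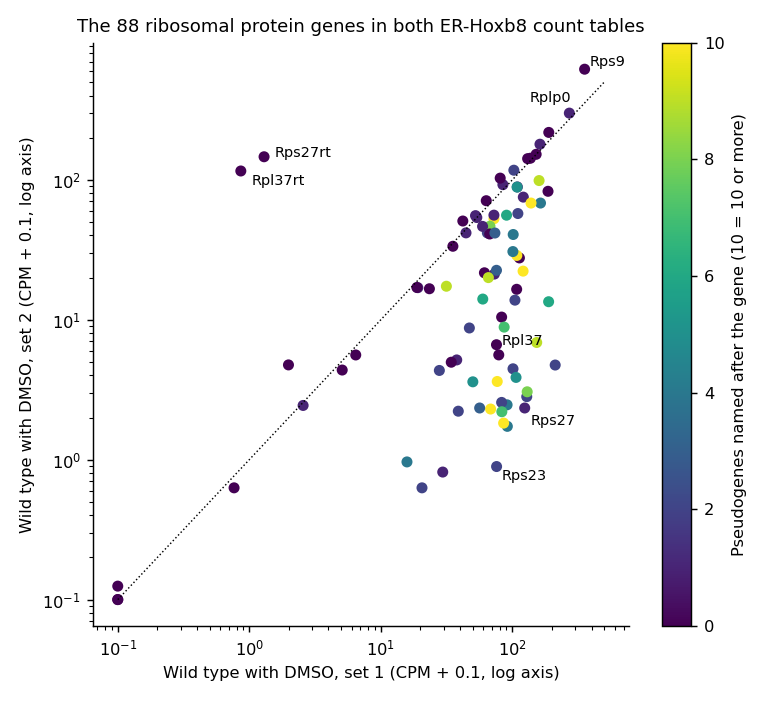
Level of each of the 88 ribosomal protein genes in WT DMSO cells of set 1 (x axis) and set 2 (y axis), as CPM + 0.1 on log axes, coloured by the number of pseudogenes named after the gene (10 stands for 10 or more), with equality as a dotted line. Rps27rt and Rpl37rt lie far above the line, 35 genes lie more than 4-fold below it, and Rplp0 and Rpl8 lie near it.

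Of the 85 genes tested in both sets, 37 (43.5%) were within 2-fold between the WT DMSO groups, against 88.8% of 9399 other protein-coding genes. Another 35 were over 4-fold lower in set 2, among them Rpl28 (1.52 and 1.74 CPM in set 2 against 92.4 and 90.5 CPM in set 1), Rps6 (2.43 and 2.30 against 93.9 and 88.2 CPM), Rpl9 (6.66 and 6.89 against 156 and 150 CPM) and Rps12 (3.66 and 3.38 against 78.6 and 74.6 CPM). Rplp0 (300 and 299 CPM in set 2 against 269 and 273 CPM in set 1) and Rpl8 (145 and 138 against 129 and 132 CPM) had nearly the same level. The log2 ratio between the sets had a Spearman rho of -0.51 with the number of pseudogenes named after the gene, a description across genes of the same libraries, in which 59 genes had at least 1 such pseudogene and Rps12 had the most, 23. All tables were counted with uniquely placed read pairs alone, by the mapping quality minimum in the file headers, and named ribosomal protein pseudogenes held 0.0029 to 0.0051% of counts in set 1, 0.1 to 0.19% in set 2, 0.19 to 0.28% in the later table and 0.011 to 0.051% in the tissue libraries. The part of read placement in these gaps was not tested. Levels are therefore compared only within a table, and medians over the 37 genes within 2-fold are given beside those over all.

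The 85 genes tested left out Rpl39l and Rpl10l, listed at 0 in every ER-Hoxb8 library, and Rpl32l, at up to 0.107 CPM. The share of counted read pairs held by all 88 genes was 0.701% ± 0.0018 with zymosan and 1.17% ± 0.025 with DMSO in CEBPB-labelled cells (SD, n = 2 for each group). It was 1.34% ± 0.0084 and 1.46% ± 0.05 in JUNB-/- cells, and 1.03% ± 0.0052 and 1.17% ± 0.027 in WT cells of set 1. In set 2 it was 0.316% ± 0.0021 with zymosan and 0.533% ± 0.012 with DMSO in IRF5-/- cells, 0.332% ± 0.0017 and 0.512% ± 0.00088 in RELB-/- cells, and 0.386% ± 0.0014 and 0.580% ± 0.018 in WT cells. The share with zymosan was below the share with DMSO in every line, and the libraries of the 2 treatments did not overlap. A share also falls when other transcripts rise. In set 1 WT the 10 most abundant genes held 11.5 and 11.4% of counts with zymosan, against 7.26 and 7.01% with DMSO. In set 2 WT they held 15 and 14.9% against 10.4 and 10%, and in JUNB-/- cells 11.1 and 11.2% against 11.3 and 10.6%. Their part was not tested. A rise of other transcripts, fewer transcripts per cell and fewer cells of a type cannot be told apart in such bulk samples.

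**Figure D2:**
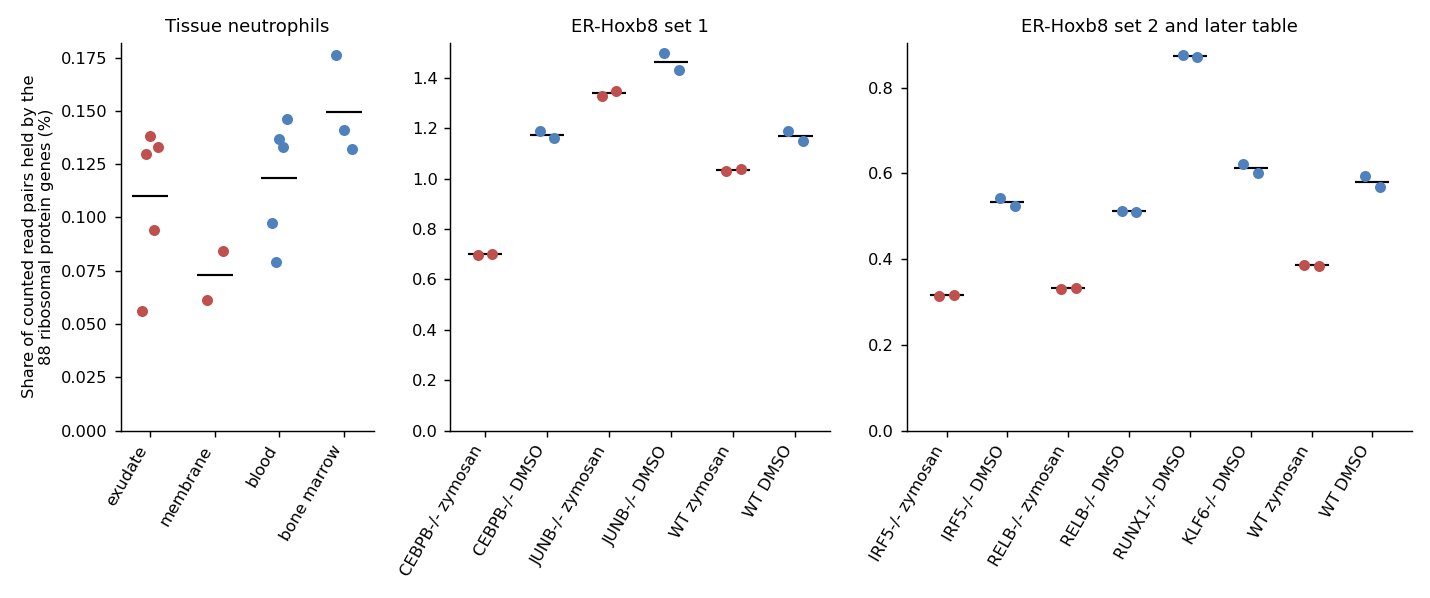
Percentage of counted read pairs held by the 88 ribosomal protein genes, 1 point per library, for the tissue libraries, set 1, and set 2 with the later table (panels with their own scales), red for zymosan or pouch groups and blue for the others, with group means as black lines. Zymosan libraries lie below the DMSO libraries of the same line, and RUNX1-labelled cells, at 0.875%, lie above their WT at 0.580%.

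Zymosan moved the ribosomal protein mRNAs up against the typical gene but down as a share of all mRNA. In WT cells of set 1, 76 of 85 members were higher with zymosan and 3 were lower, where 35.7% of all genes tested were higher and 39.9% lower, and the median log2 fold change was 0.46 for members and -0.07 for all genes. In WT cells of set 2, 56 were higher and 5 lower (36.3% and 32.1% of all genes), with a median of 0.30 against 0.05. In set 1 WT the median was 0.46 over 51 large-subunit and 0.48 over 34 small-subunit genes. The direction depended on the scaling. When counts were divided by library totals alone, the median of all genes moved to -0.77 in set 1 WT and -0.82 in set 2 WT. The members called then split into 9 higher and 62 lower in set 1 and 1 higher and 69 lower in set 2. Set against the median of all genes, members stood 0.53 higher in set 1 WT and 0.25 higher in set 2 WT, and 80 and 68 of 85 members lay above that median. Over the 37 genes within 2-fold between sets, the WT medians were 0.46 in set 1 (32 higher, 3 lower) and 0.27 in set 2 (30 higher, 2 lower). The summed CPM of the 8 neutrophil markers was 20600 to 20900 with zymosan against 25500 to 27200 with DMSO in set 1 WT, and 60200 to 61600 against 46800 to 48900 in set 2 WT. The 6 cell cycle genes, all called higher with zymosan in both sets, summed to 113 to 124 CPM against 53.7 to 56.5 CPM in set 1 WT and to 117 to 118 CPM against 66.2 to 69.9 CPM in set 2 WT. The part of these markers in the result was not tested.

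The genes of the lateral stalk, the arm of the large subunit that recruits elongation factors, rose in every line by TMM scaling. Rplp0, its base, had 461 and 431 CPM with zymosan in WT cells of set 1, against 269 and 273 CPM with DMSO (log2 fold change 0.72 ± 0.03 SE, adjusted p = 1.63e-26). In JUNB-/- cells it had 1080 CPM in both zymosan libraries against 717 and 704 CPM with DMSO (0.61 ± 0.03, adjusted p = 9.23e-24), and in CEBPB-labelled cells 486 and 478 CPM against 405 and 393 CPM (0.27 ± 0.04, adjusted p = 6.69e-10). The zymosan libraries lay above the DMSO libraries in each line, least so in CEBPB-labelled cells. In set 2 the log2 fold changes of Rplp0 were 0.26 ± 0.02 in WT, 0.16 ± 0.02 in IRF5-/- and 0.28 ± 0.02 in RELB-/- cells. Rplp1 and Rplp2, which pair on that base, rose by 0.24 to 0.89 and by 0.42 to 0.77 over the 6 responses. By library totals Rplp0 was at 0.02 in set 1 WT, not called, and at -0.61 in set 2 WT, called lower, so that its rise was a rise against other genes.

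Rpl22l1, the paralog of Rpl22 and like it an RNA-binding protein of the large subunit, rose in every line and was the only member called higher in all 6 responses under library totals too (0.40 to 1.02). With zymosan it had 16.9 and 20.0 CPM in WT cells of set 1, against 6.85 and 5.84 CPM with DMSO (1.54 ± 0.10, adjusted p = 2.66e-20). In WT cells of set 2 it had 14.1 and 12.5 CPM, against 5.90 and 5.10 CPM (1.27 ± 0.12, adjusted p = 3.18e-16). The other lines gave 1.69 ± 0.14 in CEBPB-labelled, 1.70 ± 0.12 in JUNB-/-, 1.56 ± 0.15 in IRF5-/- and 1.76 ± 0.13 in RELB-/- cells. Rpl22 itself changed by 0.18 ± 0.06 in set 1 WT and 0.33 ± 0.05 in set 2 WT, and by 0.08 ± 0.06 (adjusted p = 0.265) in IRF5-/- and 0.04 ± 0.05 (adjusted p = 0.555) in RELB-/- cells. With DMSO, Rpl22l1 was lower than in WT in the CEBPB-labelled (-0.72 ± 0.13), IRF5-/- (-0.82 ± 0.14), RELB-/- (-0.73 ± 0.13) and KLF6-labelled (-0.48 ± 0.13) cells.

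Rps2, a small-subunit protein near the mRNA entry channel, had 304 and 288 CPM with zymosan in WT cells of set 1, against 136 and 141 CPM with DMSO (1.1 ± 0.04, adjusted p = 1.80e-31). In JUNB-/- cells it had 287 and 293 CPM against 98.1 and 99.9 CPM (1.55 ± 0.04), and in set 2 WT 102 and 105 CPM against 66.2 and 70.0 CPM (0.60 ± 0.04). By library totals it was called higher in the 3 responses of set 1 and lower in the 3 of set 2. Rpl12, which binds at the foot of the stalk, had 87.9 and 78.9 CPM with zymosan in set 1 WT against 39.1 and 38.3 CPM with DMSO (1.1 ± 0.05), and rose by 0.79 to 1.15 over the 6 responses. By library totals Rpl12 was called higher in 3 responses and lower in none. Rpl23, a protein of the subunit interface, rose by 0.78 to 1.01 and Rpl27a by 0.68 to 0.97. Rpl10, known in yeast to join the large subunit late in assembly, rose by 0.56 to 0.95. Rpl12, Rpl23, Rpl27a and Rpl10 are among the genes over 4-fold lower in set 2 than in set 1. In set 2 WT with DMSO, Rpl12 had 2.12 CPM in both libraries and Rpl27a had 4.47 and 4.25 CPM. Rpl10 had 14.4 and 12.3 CPM there, and Rpl23 18.1 and 14.7 CPM. Their set 2 responses rest on these lower counts.

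In all, 25 of 85 members (29.4%) were called higher in all 6 responses and 41 (48.2%) in at least 5, by TMM scaling, against 21.5% and 27.4% of the 12395 genes tested in both sets. The 25 include the stalk genes, Rpl3, Rpl4, Rpl7a, Rpl8, Rps3, Rps14, Rps16, Rps20 and Rpsa. The responses within a set share a fit, and under library totals 1 member was called higher in all 6 (9.43% of all genes), 35 (41.2%) were called lower in all 6 (48.7% of all genes) and 69 (81.2%) were called higher in none (71.8% of all genes). Rpsa, a protein of the small subunit head also known as a laminin receptor, had 252 and 244 CPM with zymosan against 157 and 162 CPM with DMSO in set 1 WT (0.64 ± 0.04).

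The symbols that fell in all 6 responses were 2, and neither names a regular subunit. Rpl7l1, a paralog of Rpl7 that resembles the yeast assembly factor Rlp7, had 38.1 and 39.1 CPM with zymosan in set 1 WT, against 54.2 and 52.9 CPM with DMSO (-0.47 ± 0.05, adjusted p = 8.38e-12). In JUNB-/- cells it had 46.1 and 49.1 CPM against 107 CPM in both DMSO libraries (-1.16 ± 0.05, adjusted p = 1.37e-28), and in RELB-/- cells 38.1 and 37.6 CPM against 70.6 and 71.4 CPM (-0.90 ± 0.05). Rpl7 had 218 and 224 CPM with zymosan against 163 and 161 CPM with DMSO in set 1 WT (0.44 ± 0.04), so the 2 paralogs moved apart by TMM scaling. Rps19bp1, chosen after its values were seen, encodes a protein that binds Rps19 and entered the group by its symbol. It had 1.11 and 1.16 CPM with zymosan in IRF5-/- cells, against 4.13 and 3.37 CPM with DMSO, and fell by 0.57 to 1.72 over the 6 responses.

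**Figure D3:**
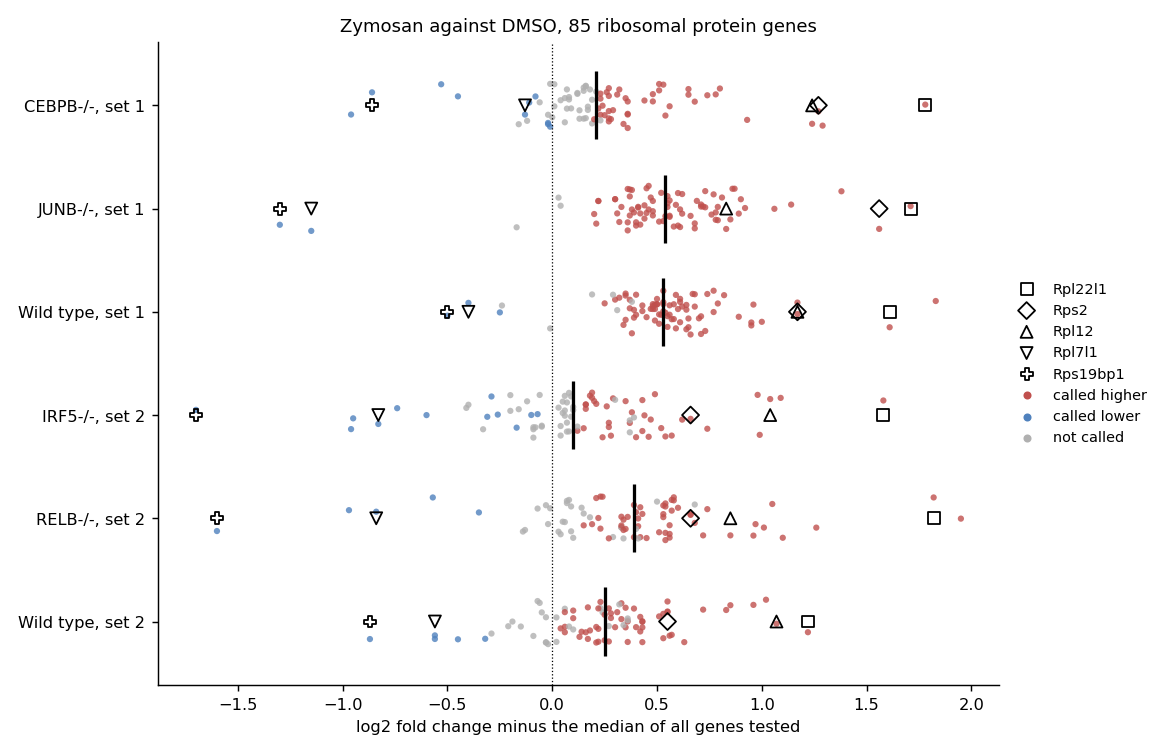
Log2 fold change with zymosan over DMSO minus the median of all genes tested (x axis), 1 point for each of 85 ribosomal protein genes in each of the 6 lines, red for called higher, blue for called lower and grey for not called by TMM scaling, with the members' median as a black bar. Open symbols pick out Rpl22l1, Rps2 and Rpl12 on the right and Rpl7l1 and Rps19bp1 on the left; the median stands 0.53 right of 0 in set 1 WT and 0.22 in CEBPB-labelled cells.

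The log2 response to zymosan was lower in CEBPB-labelled cells than in WT cells of the same set. There 42 members were higher and 10 lower (35.1% and 38.4% of all genes), with a median of 0.12 against -0.09 over all genes; by library totals the split was 3 and 79 with the median of all genes at -1.02. The test of the difference between lines gave 67 members with a lower and 1 with a higher log2 response than in WT, where 16.7% of all genes were lower and 24.4% higher in that contrast. By library totals the same contrast gave 76 lower and 0 higher. The members' median response was then a deeper fall in CEBPB-labelled cells (-0.81) than in WT (-0.24). Rpl28, a large-subunit protein, had 118 and 122 CPM with zymosan and 130 and 127 CPM with DMSO in CEBPB-labelled cells, against 126 and 125 CPM and 92.4 and 90.5 CPM in WT (difference of the responses -0.56 ± 0.06, adjusted p = 2.44e-11). Rpl7 (-0.55 ± 0.05), Rps26 (-0.55 ± 0.08), Rpl15 (-0.54 ± 0.09) and Rplp0 (-0.45 ± 0.05) showed the same. Rps2 (0.08 ± 0.06, adjusted p = 0.318) and Rpl22l1 (0.14 ± 0.18, adjusted p = 0.561) did not pass this test. Rpl7l1 was the member with the higher, that is less negative, response (0.25 ± 0.07, adjusted p = 0.00516), a call lost by library totals (0.02).

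In JUNB-/- cells 80 members were higher and 2 lower (36.5% and 36.7% of all genes; 13 and 51 by library totals, with the median of all genes at -0.69), and the median was 0.53 against -0.01. The difference from the WT response was positive for 23 members and negative for 17 (28.1% and 15.4% of all genes). Rps29 (0.58 ± 0.14), Rps27 (0.53 ± 0.08), Rpl37 (0.46 ± 0.09) and Rps2 (0.45 ± 0.06) rose more in JUNB-/- cells, while Rpl7l1 (-0.69 ± 0.07), Rpl3 (-0.44 ± 0.08), Rpl6 (-0.37 ± 0.06) and Rpl4 (-0.29 ± 0.05) moved less far up, or further down, than in WT. Both lines of set 1 were set against the same WT libraries. Rps27 had 386 and 429 CPM with zymosan and 220 and 174 CPM with DMSO in JUNB-/- cells, against 171 and 184 CPM and 134 and 114 CPM in WT.

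In set 2, IRF5-/- cells had 37 members higher and 12 lower with zymosan (34.3% and 35.4% of all genes), with a median of 0.08 against -0.02 over all genes. RELB-/- cells had 54 higher and 5 lower (35.2% and 37.5%), with a median of 0.33. By library totals the splits were 1 and 75 in IRF5-/- and 3 and 69 in RELB-/- cells, with the median of all genes at -0.96 and -0.94. The members' median by library totals was -0.86 in IRF5-/-, -0.56 in RELB-/- and -0.58 in WT cells. By TMM scaling, 29 members had a lower and 2 a higher log2 response than in WT in IRF5-/- cells (16.8% and 16.5% of all genes), and 17 and 19 in RELB-/- cells (15.3% and 16.1%). The IRF5 count fell to 10 members in all when either IRF5-/- zymosan library was left out. Rpl32 had 39.8 and 38.5 CPM with zymosan and 39.5 and 38.2 CPM with DMSO in IRF5-/- cells, and 38.4 and 40.0 CPM and 40.3 and 39.5 CPM in RELB-/- cells, against 71.7 and 73.6 CPM and 58.8 and 51.9 CPM in WT. Its log2 response was lower than in WT in both lines (-0.38 ± 0.07 in IRF5-/- and -0.42 ± 0.07 in RELB-/- cells). Rps10 (0.57 ± 0.09) and Rps24 (0.30 ± 0.05) rose more in RELB-/- than in WT cells. The 2 lines were set against the same WT libraries.

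With DMSO alone, most members were higher in JUNB-/- cells than in WT by TMM scaling. There 73 members were higher and 6 lower than in WT (35.4% and 41.1% of all genes), with a median of 0.68 against -0.12 over all genes, and a share of counts of 1.46% against 1.17%. By library totals 48 were higher and 24 lower, with the members' median at 0.13 and that of all genes at -0.67, and over the 37 genes within 2-fold between sets the median was 0.76 (29 higher, 4 lower). Rps24, a small-subunit protein mutated in some families with Diamond-Blackfan anaemia, had 335 and 311 CPM in JUNB-/- cells against 104 and 101 CPM in WT (1.66 ± 0.04, adjusted p = 1.95e-41). Rps10, another gene of that disease, had 289 and 274 CPM against 102 and 99.6 CPM (1.48 ± 0.04), and Rplp0 717 and 704 CPM against 269 and 273 CPM (1.39 ± 0.03, adjusted p = 1.86e-40). Rps9, a core protein of the small subunit, had 951 and 900 CPM against 358 and 350 CPM (1.39 ± 0.03, adjusted p = 1.05e-40). These 4 kept a call of higher by library totals (0.84 to 1.11). Rpl3, which reaches the peptidyl transferase centre, fell by 0.40 ± 0.06, and Rps2 fell by 0.48 ± 0.04 to 98.1 and 99.9 CPM against 136 and 141 CPM in WT. With zymosan in both lines, 74 were higher and 5 lower than in WT (39.1% and 37.4% of all genes; 47 and 24 by library totals), led by Rps10 (1.73 ± 0.04), Rps24 (1.69 ± 0.04) and Rps9 (1.58 ± 0.03). The summed CPM of 8 neutrophil markers was 68400 to 75300 in JUNB-/- DMSO libraries against 25500 to 27200 in WT, with 8 of 8 called higher, and that of the 6 cell cycle genes 33.2 to 34.6 against 53.7 to 56.5. Monocyte markers summed to 792 to 794 CPM in JUNB-/- DMSO libraries against 1190 to 1210 CPM in WT. The part of all these markers in the result was not tested.

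CEBPB-labelled cells with DMSO differed from WT in individual members more than as a group. There 51 were higher and 14 lower (33.6% and 36.9% of all genes), with a median of 0.20 against -0.05, but 19 were higher and 45 lower by library totals, and the share of counts was 1.17% in both. Rpl9, a large-subunit protein, had 379 and 387 CPM in CEBPB-labelled cells against 156 and 150 CPM in WT (1.32 ± 0.04, adjusted p = 4.47e-36). Rps27a, made as a fusion with ubiquitin, had 430 and 422 CPM against 216 and 207 CPM (1.01 ± 0.04), and Rps9 692 and 673 CPM against 358 and 350 CPM (0.95 ± 0.03). Rpl12 had 17.2 and 19.1 CPM against 39.1 and 38.3 CPM (-1.09 ± 0.06, adjusted p = 2.07e-22), and Rpl3 23.6 and 24.0 CPM against 47.1 and 46.9 CPM (-0.98 ± 0.06, adjusted p = 4.92e-22). These rises and falls of 5 genes were called the same way by library totals. With zymosan the group lay on the other side of WT by TMM scaling. There 20 members were higher and 38 lower (35% and 32.9% of all genes; 4 and 78 by library totals), with a median of -0.14. By library totals the members' median change from WT was negative with both treatments (-0.16 with DMSO and -0.72 with zymosan). Rpl3 (-1.45 ± 0.06), Rpl12 (-1.05 ± 0.06) and Rpl10a (-1.0 ± 0.07) were the lowest with zymosan. Neutrophil markers summed to 55800 to 57100 CPM in CEBPB-labelled DMSO libraries against 25500 to 27200 CPM in WT. Cell cycle genes summed to 6.40 to 8.02 against 53.7 to 56.5 CPM, and monocyte markers to 1160 to 1170 against 1190 to 1210 CPM. The part of these markers was not tested.

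In IRF5-/- and RELB-/- cells most called members were below WT. With DMSO, 10 were higher and 38 lower in IRF5-/- cells (35% and 29.6% of all genes), with a median of -0.18 against 0.04, and 4 higher and 49 lower in RELB-/- cells (32.1% and 27.3%), with a median of -0.19 against 0.04. By library totals the splits were 4 and 55 in IRF5-/- and 4 and 50 in RELB-/- cells. Rplp1 had 40.3 and 37.5 CPM in IRF5-/- and 37.1 and 37.7 CPM in RELB-/- cells, against 58.8 and 52.8 CPM in WT (-0.52 ± 0.05 and -0.57 ± 0.05). In IRF5-/- cells Rps2 had 43.1 and 43.9 CPM against 66.2 and 70.0 CPM in WT (-0.65 ± 0.04, adjusted p = 9.35e-24). In RELB-/- cells Rps19, which is needed to mature the small subunit and is the gene most often mutated in Diamond-Blackfan anaemia, had 34.0 and 34.3 CPM against 54.2 and 51.0 CPM (-0.62 ± 0.05, adjusted p = 1.66e-20). Rps24 fell there to 80.6 and 78.5 CPM against 118 and 116 CPM in WT (-0.56 ± 0.03). Rps9 went the other way in IRF5-/- cells, with 780 and 762 CPM against 623 and 611 CPM (0.32 ± 0.02, adjusted p = 1.21e-23). With zymosan in both lines, 3 were higher and 55 lower than in WT for IRF5-/- cells (29.6% and 30.8% of all genes; 2 and 68 by library totals), and 4 and 41 for RELB-/- cells (27.1% and 28.9%; 1 and 43). Rpl32 was the lowest named member in both (-0.89 ± 0.06 and -0.89 ± 0.05). Neutrophil markers summed to 60100 to 62200 CPM in IRF5-/- and 48900 to 49300 CPM in RELB-/- DMSO libraries, against 46800 to 48900 CPM in WT. Cell cycle genes summed to 25 to 25.3 CPM in IRF5-/- and 23.3 to 25.5 CPM in RELB-/- libraries, against 66.2 to 69.9 CPM in WT, with 6 of 6 called lower in both lines. The 5 monocyte markers summed to 598 CPM in both IRF5-/- and 795 to 796 CPM in RELB-/- libraries, against 942 to 944 CPM in WT. The part of these markers was not tested.

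RUNX1-labelled cells had more ribosomal protein mRNA than WT both by TMM scaling and by library totals. There 57 members were higher and 9 lower (38.2% and 37.1% of all genes), with a median of 0.36 against 0.01, and 75 and 2 by library totals, where the members' median was 0.72 and that of all genes 0.38. The share of counts was 0.875% ± 0.0033 against 0.580% ± 0.018 in WT (SD, n = 2 each). Rps2 had 230 and 223 CPM in RUNX1-labelled cells against 98.2 and 104 CPM in WT (1.17 ± 0.03, adjusted p = 4.91e-27), and Rpl36al, the autosomal paralog of the X-linked Rpl36a, 59.1 and 59.0 CPM against 25.2 and 23.8 CPM (1.27 ± 0.05, adjusted p = 5.56e-21). Rps27l, a paralog of Rps27 that p53 induces, had 53.1 and 55.7 CPM against 27.4 and 22.8 CPM (1.12 ± 0.06, adjusted p = 2.10e-17), and Rps18 67.8 and 72.1 CPM against 34.6 and 32 CPM (1.07 ± 0.05). Rps9 was lower under both scalings, with 491 and 481 CPM against 924 and 904 CPM (-0.91 ± 0.02, adjusted p = 2.13e-28; -0.55 by library totals). Rps24 (-0.19 ± 0.03) and Rps27rt (-0.28 ± 0.04) were lower by TMM scaling and higher by library totals. Rpl37rt (-0.30 ± 0.04) was not called by library totals. Rps27, chosen after its values were seen, was at -1.34 ± 0.22 and counts few reads in this table. Neutrophil markers summed to 19300 to 19600 CPM in RUNX1-labelled against 69300 to 72600 CPM in WT libraries, with 8 of 8 called lower. Cell cycle genes summed to 11.2 to 11.9 against 98.0 to 104 CPM, and monocyte markers to 1660 to 1670 against 1390 to 1400 CPM. The part of these markers was not tested.

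KLF6-labelled cells lay near WT as a group. There 30 members were higher and 14 lower (31.2% and 35% of all genes; 16 and 26 by library totals), with a median of 0.07 against -0.04, and the share of counts was 0.612% ± 0.015 against 0.580% ± 0.018. Rps9 had 1350 and 1310 CPM in KLF6-labelled cells against 924 and 904 CPM in WT (0.54 ± 0.02, adjusted p = 1.46e-21), and Rpl7a 59.5 and 49.9 CPM against 34.5 and 31.3 CPM (0.74 ± 0.06). Rpl36al (-0.74 ± 0.07, 14.7 and 14.6 CPM against 25.2 and 23.8 CPM), Rps27l (-0.61 ± 0.08), Rplp1 (-0.49 ± 0.05) and Rps2 (-0.38 ± 0.04) were lower. RUNX1-labelled and KLF6-labelled cells were set against the same WT libraries, and Rps9, Rps2, Rps27l and Rpl36al had opposite signs in them. Neutrophil markers summed to 80700 to 85000 CPM in KLF6-labelled and 69300 to 72600 CPM in WT libraries. Cell cycle genes summed to 58 to 58.7 against 98.0 to 104 CPM, with 5 of 6 called lower. Monocyte markers summed to 1060 to 1070 against 1390 to 1400 CPM, with 5 of 5 called lower; their part was not tested.

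**Figure D4:**
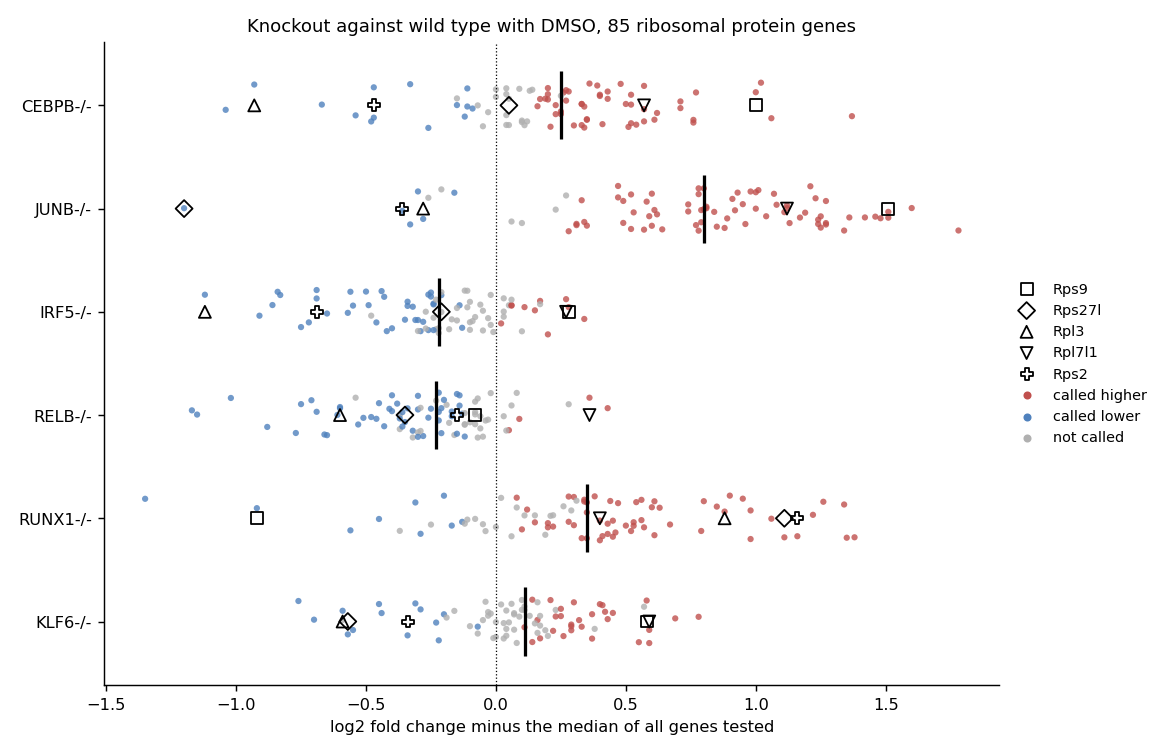
Log2 fold change of each labelled line over WT with DMSO minus the median of all genes tested (x axis), 1 point for each of 85 ribosomal protein genes, red for called higher, blue for called lower and grey for not called by TMM scaling, with the members' median as a black bar and open symbols for Rps9, Rps27l, Rpl3, Rpl7l1 and Rps2. The median stands 0.8 right of 0 for JUNB-/- and 0.34 for RUNX1-labelled cells, and 0.22 and 0.23 left of it for IRF5-/- and RELB-/- cells.

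Some paralog pairs moved in opposite directions by TMM scaling. Rps27l fell by 1.32 ± 0.11 in JUNB-/- DMSO cells, to 8.86 and 6.01 CPM against 21.1 and 16.3 CPM in WT, while Rps27 rose by 0.67 ± 0.06 to 220 and 174 CPM against 134 and 114 CPM. Rpl36al had 18.4 and 15.8 CPM in the same cells against 24.2 and 22.4 CPM (-0.45 ± 0.07), and Rpl36a 23.4 and 18.1 CPM against 17.0 and 14.4 CPM (0.40 ± 0.09). The members' median in these cells was 0.68 by TMM scaling and 0.13 by library totals, so the sign of a small change depends on the scaling. Rpl22 had 125 and 121 CPM in RUNX1-labelled cells against 62.7 and 60.7 CPM in WT (0.99 ± 0.04), and Rpl22l1 7.90 and 7.23 CPM against 8.76 and 7.55 CPM (-0.11 ± 0.12, adjusted p = 0.417). By library totals Rpl22 (1.36) and Rpl22l1 (0.26) were both called higher in these cells. Rpl3l, known from striated muscle, was at 1.01 to 3.56 CPM in set 1. In tissue it averaged 24 CPM in the exudate, 12.2 in blood, 3.94 in bone marrow and 0.0854 in the membrane. Rpl3 averaged 0.0461, 5.23, 1.93 and 0 CPM at these sites. In other cases both members of a pair were higher: Rpl36a (0.68 ± 0.25) and Rpl36al (1.27 ± 0.05) in RUNX1-labelled cells, and Rpl7 (0.10 ± 0.03) and Rpl7l1 (0.55 ± 0.04) in KLF6-labelled cells. By library totals Rpl7 was at -0.04 in KLF6-labelled cells and was not called. Reads that could fit both members of a pair were not counted here, and these values are uncertain to that extent. Rpl39l and Rpl10l, known from testis, were listed at 0 in every ER-Hoxb8 library. In tissue Rpl10l had 2 counts in blood library 3 and Rpl39l 1 count in exudate library 5.

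Other proteins that belong to the ribosome outside the symbol rule followed the group in set 1. Fau, a fusion of a ubiquitin-like protein with the small-subunit protein S30, had 376 and 370 CPM with zymosan against 277 and 261 CPM with DMSO in WT (0.47 ± 0.04), and 573 and 514 CPM in JUNB-/- DMSO cells (1.01 ± 0.04 over WT). Rack1, a scaffold on the small subunit, had 160 and 157 CPM with zymosan against 109 and 116 CPM with DMSO in WT (0.50 ± 0.04), and its log2 response was lower in CEBPB-labelled cells (-0.51 ± 0.06, adjusted p = 3.33e-10). In RUNX1-labelled cells Rack1 had 268 and 264 CPM against 158 CPM in both WT libraries (0.75 ± 0.03).

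Genes around the ribosome gave a mixed picture. Among 20 other TOP mRNAs, a list that overlaps the elongation factors and the 3 genes above, zymosan raised 16 and lowered 1 in set 1 WT (median 0.50, by TMM scaling; 35.7% of all genes were higher and 39.9% lower) and 13 and 3 in set 2 WT (0.32; 36.3% and 32.1% of all genes). The difference of the CEBPB-labelled response from WT was negative for 14 and positive for 2 (16.7% and 24.4% of all genes). Of 8 elongation factors 5 rose and 1 fell in set 1 WT; Eef1a1, which brings aminoacyl-tRNA, averaged 3990 CPM with zymosan against 1390 CPM with DMSO (1.52 ± 0.03), and Eef2k, the kinase that inhibits Eef2, 7.01 against 17.1 CPM (-1.29 ± 0.10). Of 34 initiation factors 16 rose and 9 fell in the same comparison, with Eif4a1, the helicase of cap-dependent initiation, at 1030 against 247 CPM (2.06 ± 0.03). In the list of 12 genes of mTORC1 and LARP1, 4 rose and 7 fell: Rheb, the activator of mTORC1, averaged 179 against 54.2 CPM (1.72 ± 0.05), and Eif4ebp2, a repressor of initiation that mTORC1 inactivates, 98.2 against 300 CPM (-1.61 ± 0.04).

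The ribosome assembly factors differed in direction from the ribosomal proteins in some lines and not in others, by TMM scaling. In the biogenesis list of 30, zymosan raised 17 and lowered 6 in set 1 WT (median 0.60), where 35.7% of all genes were higher and 39.9% lower. Ltv1, which acts in small-subunit export and maturation, averaged 86.1 CPM with zymosan against 10.0 CPM with DMSO (3.10 ± 0.06). With DMSO, JUNB-/- cells had 2 of the list higher and 26 lower than WT (median -1.83; 35.4% and 41.1% of all genes), beside 73 ribosomal proteins higher; Nop58, a core protein of box C/D snoRNPs, averaged 0.692 against 8.82 CPM (-3.67 ± 0.19). CEBPB-labelled (3 higher, 23 lower, median -1.0; 33.6% and 36.9% of all genes) and KLF6-labelled cells (4 and 22, -0.96; 31.2% and 35%) had most of the list below WT as well, beside more ribosomal proteins higher than lower. In IRF5-/- (3 and 22, -1.05; 35% and 29.6%) and RELB-/- cells (4 and 18, -0.35; 32.1% and 27.3%) the list and the ribosomal proteins were both mostly lower. RUNX1-labelled cells had 26 of the list higher and 2 lower (median 0.97; 38.2% and 37.1% of all genes), beside 57 ribosomal proteins higher. Fbl, the snoRNP methyltransferase, averaged 17.7 against 5.54 CPM (1.68 ± 0.11). Of the mitochondrial ribosomal proteins, 8 of 77 were higher and 53 lower with zymosan in set 1 WT (median -0.57; 35.7% and 39.9% of all genes), and 8 and 36 of 76 in set 2 WT (-0.30; 36.3% and 32.1%), where more cytosolic ones were higher than lower. With DMSO, RUNX1-labelled cells had 68 of 77 higher and 6 lower than WT (0.88; 38.2% and 37.1%), and CEBPB-labelled cells 25 higher and 25 lower (-0.06; 33.6% and 36.9%).

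In the neutrophils sorted from tissue the libraries of a site varied widely. The 88 genes held 0.110% ± 0.035 of counts in the exudate (n = 5), 0.0730% ± 0.016 in the membrane (n = 2), 0.119% ± 0.029 in blood (n = 5) and 0.150% ± 0.023 in bone marrow (n = 3; errors are SD). These were libraries of small bulk samples made by Smart-seq2, so their levels are not set against those of the ER-Hoxb8 tables. Of the 88 genes 17 to 43 were at 0 in the exudate libraries, 23 to 48 in the membrane, 10 to 25 in blood and 6 to 12 in bone marrow, and the common biological coefficient of variation was 1.86. Of 81 members tested none was called in any of the 6 comparisons of tissues, where at most 0.114% of all genes were called in either direction (exudate over bone marrow: 0.0649% higher and 0.114% lower; membrane over bone marrow: 0.0162% higher; blood over bone marrow: 0.0162% higher; 0 in the other 3). At an unadjusted p under 0.05 edgeR had 5 members for exudate and blood (19.1% of all genes), 5 for exudate and bone marrow (23.1%), 3 for exudate and membrane (8.22%), 4 for membrane and blood (7.81%), 6 for membrane and bone marrow (13.3%) and 2 for blood and bone marrow (11.7%). DESeq2 called 3 of 74 members with an adjusted p for exudate over blood (11.2% of all genes), 4 of 74 over bone marrow (15.7%) and 4 of 72 over membrane (9.59%). It called 7 of 74 for membrane over blood (12.5%), 13 of 72 for membrane over bone marrow (17.2%) and 0 of 75 for blood over bone marrow (2.64%). The members' share was near or below that of all genes in each.

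Per kilobase, Rps27rt (342 CPM per kb), Rps9 (108), Rpl37rt (61.6), Rpl41 (47.6) and Rps14 (44.4) were the most abundant members in tissue. Rps27rt and Rpl37rt are the retrogenes whose counts, with those of their parent genes, differed widely between the ER-Hoxb8 sets. Their counts in tissue may include reads of the parent genes, and the part of read placement was not tested. Rps27rt had 61.3, 204, 350, 209 and 167 CPM in the exudate and 78.7 and 111 CPM in the membrane, against 162, 121, 101, 137 and 44.7 CPM in blood and 46.5, 60.2 and 65.9 CPM in bone marrow. All but 1 exudate library lay above all 3 bone marrow libraries (1.78 ± 0.96, adjusted p = 0.262), and exudate and blood overlapped (0.81 ± 0.77, adjusted p = 0.607). Rps9 had 100, 452, 273, 246 and 597 CPM in the exudate and 399 and 193 CPM in the membrane, against 268, 274, 193, 209 and 233 CPM in blood and 290, 153 and 196 CPM in bone marrow, so all groups overlapped. Rpl8, a large-subunit protein, had 39.8, 104, 63.4, 40.5 and 135 CPM in the exudate and 0 and 14.5 CPM in the membrane, against 15.2, 0.357, 7.21, 22.3 and 22.9 CPM in blood and 8.09, 14.2 and 18.4 CPM in bone marrow. Its exudate libraries lay above those of every other site, yet the test did not pass for exudate over blood (2.49 ± 1.41, adjusted p = 0.342).

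Rpl22l1, which rose in every line given zymosan, was at 0 in all 5 exudate libraries and at 0 and 7 CPM in the membrane, against 5.52, 2.14, 0, 0 and 22.9 CPM in blood and 6.49, 10.2 and 10.1 CPM in bone marrow. With a floor of 3 counts over the 5 exudate libraries, at least 274-fold lower than in bone marrow, it still did not pass the test (adjusted p = 0.109 for exudate over bone marrow and 0.194 over blood). That floor covers counting error only. Rps27l had 0, 0, 10.7, 0.891 and 0 CPM in the exudate and 0 and 8.29 CPM in the membrane, against 5.61, 17.6, 3.10, 11.9 and 19.3 CPM in blood and 9.89, 36.6 and 38.4 CPM in bone marrow. For membrane over bone marrow, 41 members lay wholly lower and 2, Rps27rt and Rpl37rt, wholly higher, where 18.8% and 12.9% of all genes did, and the median was -2.05 for members and -0.75 for all genes. Both membrane columns carry one tag in their names and all 3 bone marrow columns the other, and the labels do not explain it. Site and tag therefore cannot be told apart between these groups alone. In a fit over all sites with the tag as a term, the median was -3.03 for members and -1.13 for all genes, and no member was called. For exudate over bone marrow 8 lay wholly lower and 1 wholly higher (8.4% and 3.33% of all genes). For membrane over blood the counts were 12 wholly lower and 1 wholly higher (7.46% and 5.11%), for blood over bone marrow 9 and 0 (2.81% and 2.17%). They were 0 and 4 for exudate over membrane (3.84% and 2.04%; Rpl8, Rpl35, Rpl38 and Rpl3l), and for exudate over blood 0 and 1, Rpl8 (1.67% and 0.503%). Neutrophil markers summed to 85100 to 345000 CPM in the exudate and 107000 to 154000 CPM in the membrane, against 189000 to 309000 CPM in blood and 202000 to 258000 CPM in bone marrow, where erythroid markers reached 1490 CPM in a library; their part was not tested.

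**Figure D5:**
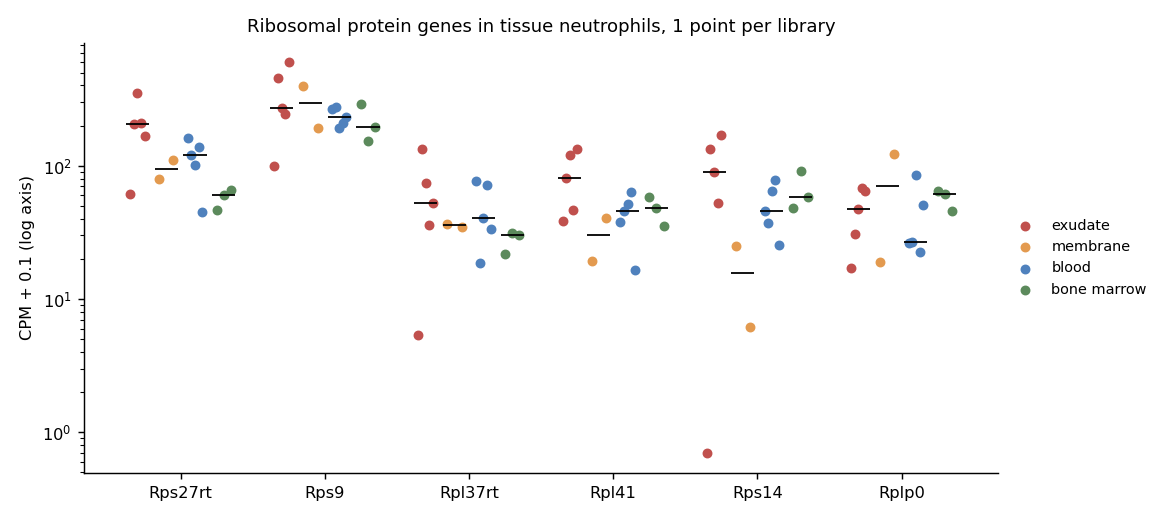
CPM + 0.1 on a log axis of Rps27rt, Rps9, Rpl37rt, Rpl41, Rps14 and Rplp0 in exudate, membrane, blood and bone marrow neutrophils, 1 point per library, with group medians as black lines. For Rps27rt 4 of the 5 exudate libraries lie above all bone marrow libraries, and for Rps9 and Rplp0 the groups overlap. Rps27rt and Rpl37rt are retrogenes, and the part of read placement in their levels was not tested.

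ATAC sites lay at most of these starts. A merged ATAC site lay within 250 bp of the gene start given with the counts for 80 of the 88 members (90.9%). The share was 47.7% of all protein-coding genes and 76.3% of the 9749 protein-coding genes tested in tissue. The members without a site were Rpl10l, Rpl32l, Rpl37rt, Rpl39l, Rpl3l, Rps10, Rps2 and Rps27rt. The start used here can differ from the RefSeq start of the sequence windows: for Rpl18 it is 45715457, and the window begins at 45718066. A site at another start of these genes would not be counted. Of the 80 sites 79 joined at least 8 of the authors' peaks (98.8%, against 74.8% of the sites at all starts), and their median width was 565.5 bp, against 574 bp. No member's start lay in any of the authors' 10 lists of differentially accessible sites. These lists set exudate and membrane each against blood and bone marrow and blood against bone marrow, with no list of exudate against membrane. They cover 0.0576 to 1.8% of protein-coding starts each, and at such shares few of 88 genes would be in a list.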

How the data were processed

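The deposited RNA tables hold gene counts of read pairs made by the authors with featureCounts (1.5.0-p2, unstranded, for tissue; 1.6.3, reverse-stranded, for ER-Hoxb8 cells) with a mapping quality minimum of 255, per the file headers. STAR and DESeq2, on mm10/GRCm38, and for ATAC data cutadapt, Bowtie2, MACS2, deepTools and DESeq2 are named in the submitters' processing notes. The authors' differential ATAC lists give −log10 adjusted p-values, and their deposited merged sites a score for each peak joined; only positions and the number of peaks joined were used. Among the columns of the ER-Hoxb8 files, 28 that matched no label were not used.

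Of 50600 gene IDs 50376 (99.6%) had a symbol in the RefSeq-based tables, and 375 symbols met the name pattern, 288 of them pseudogenes. An edgeR (4.0.16, R 4.3.3) quasi-likelihood fit of each table used TMM scaling and filterByExpr (minimum 10 counts, 15 in total), with groups as the only term and 26 comparisons, called at an adjusted p under 0.05. Tissue column names repeat the same tag and number across sites, and the labels do not say whether these mark the same animal. The main fit took the tissue libraries as independent. The filter kept 12330 genes of the tissue libraries, 12899 of set 1, 13779 of set 2 and 13608 of the later table. The fits were tested on simulated counts. DESeq2 1.42.0, other scalings and filters, a replicate block and leaving out each library were alternatives. Figures used matplotlib 3.10.9. The members, the gene lists and the tests were chosen with earlier results of these data known. The result of a member gene is not reported here.

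Named members are the stalk genes, paralog pairs, Rps27a and Rpsa, the 5 most abundant per kilobase in each table, and up to 4 called rises and 4 falls per comparison among members with a mean log2 CPM of at least 4 and libraries that do not overlap. Start windows span 250 bases before to 50 after the RefSeq start.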

Additional observations from a re-analysis of the deposited data

Results flagged for a closer look

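Rplp2, a stalk gene, was at 18.7 CPM in exudate library 3, against 0.229 to 2.58 CPM in the other 4 exudate libraries, which set that library apart. Other members also had counts mainly from 1 exudate library. Rps19bp1 had 451 counts in library 4 and 0 in the other 4, and Rpl12 had 178 in library 3 and 0 to 2 in the others. The Rplp2 set is 1 of 20 group-by-gene sets examined in this way, with 1 library apart among them. How often chance alone sets a library apart was not tested.

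By the test of the difference itself, the members' zymosan response differed from WT most in CEBPB-labelled cells. In JUNB-/- and RELB-/- cells the counts of members lay near the shares of all genes. The IRF5-/- count fell when either zymosan library of that line was left out. By TMM scaling, 67 members had a lower and 1 a higher log2 response in CEBPB-labelled cells than in WT (16.7% and 24.4% of all genes), 17 and 23 in JUNB-/- cells (15.4% and 28.1%), 29 and 2 in IRF5-/- cells (16.8% and 16.5%), and 17 and 19 in RELB-/- cells (15.3% and 16.1%). Lines of the same set share their WT libraries.

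Pseudogenes named after ribosomal proteins, which are outside the 88 genes, held up to 0.19% of counted read pairs in set 2.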

How the results depend on the processing

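Over all alternatives, 346 of 381 counts of called members stayed within 1.5 times the main count. Requiring a 2-fold change left 4 members called for zymosan in WT of set 1, 5 in CEBPB-labelled, 7 in JUNB-/-, 4 in WT of set 2, 4 in IRF5-/- and 6 in RELB-/- cells; 3, 23, 1 and 2 for CEBPB, JUNB, IRF5 and RELB over WT with DMSO; 4, 28, 8 and 3 for the same with zymosan; 1, 1, 2 and 2 for the differences of their responses; 9 for RUNX1; and 0 for KLF6. DESeq2 gave 11 for the IRF5 and 23 for the RELB difference of responses, 29 for RELB over WT with zymosan, 3 for exudate over blood, 4 over bone marrow and 4 over membrane, and 7 and 13 for membrane over blood and bone marrow. No filter on low counts gave 15 for the IRF5 difference. Scaling by library totals gave 76 calls for zymosan in IRF5-/- and 82 in CEBPB-labelled cells.

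The members' median changed sign by library totals for zymosan in WT of set 1 (-0.24), CEBPB-labelled (-0.81), JUNB-/- (-0.15), WT of set 2 (-0.58), IRF5-/- (-0.86) and RELB-/- cells (-0.56), for CEBPB over WT with DMSO (-0.16), for KLF6 (-0.07) and for exudate over blood (-0.46). For exudate over blood it was also negative by RLE scaling (-0.15), with the column tag as a term (-0.09), with a replicate block by tag and number (-0.55) and by DESeq2 (-0.17). RLE scaling and DESeq2 each gave -0.06 for the JUNB difference, and adding pseudogene reads gave -0.01 for the RELB difference. For membrane over blood, the members' median minus that of all genes was -0.14 with only these groups, -0.32 with the tag, -1.23 with tag and number, and -0.06 by DESeq2. The log2 ratio of the members' share turned positive among genes that changed under 2-fold: 0.49, 0.07 and 0.45 for zymosan in WT, CEBPB-labelled and JUNB-/- cells of set 1, 0.07 in WT of set 2, 0.45 and 0.21 for exudate over blood and bone marrow, and 0.25 and 0.01 for membrane over them; it was -0.04 for the JUNB difference. The cause was not tested, except that library totals move the median of all genes as well.

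Leaving out each library gave -0.28 to 0.08 for the log2 share ratio of exudate over blood, -0.82 to 1.26 for membrane over blood minus all genes, -0.01 to 0.11 for the zymosan median in CEBPB-labelled cells, -0.13 to 0.05 and -0.01 to 0.13 for the JUNB and RELB differences, and 10 to 34 calls for the IRF5 difference. A replicate block gave 79 calls for zymosan in WT of set 1 and 68 for the CEBPB difference; same-numbered libraries correlated by only -0.04 to 0.04 in their deviations, and the block moved no count by over 1.5 times. Adding pseudogene reads, TMM without members and the share among unchanged genes were chosen after seeing the data. In tissue, libraries of 9237737 to 19106125 read pairs with many members at 0 limit what can be detected.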
